A study of Rattus norvegicus with 30 samples.

Results

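Nfe2 and 8 genes of red blood cell formation (Ahsp, Slc4a1, Alas2, Gata1, Klf1, Epb42, Rhag and Tfrc) were followed in 30 rat livers. The genes were listed by name, and each was read from the probe sets that the array annotation ties to its symbol. All 9 were found, on 11 of the 31042 probe sets tested, as 9 of the 14217 genes that could be read. Slc4a1 and Tfrc had 2 probe sets each. For these genes the probe set with the highest mean over all arrays stood for the gene, and the other is given where it differed. Nfe2 was read from a single probe set through the array annotation. Which transcripts its probes match was not checked here, so every Nfe2 value below is that of this probe set. It fell several-fold in PBDE pups of both sexes, while none of the other 8 genes passed the test with dose. With age the pattern was wider, and Nfe2, Slc4a1, Tfrc, Alas2 and Ahsp were all lower in adult than in pup livers of control males. The other Slc4a1 probe set was not called there. Adult and male pup arrays carry different name prefixes, so age and prefix cannot be told apart in that comparison.

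Red blood cells mature from progenitors under the transcription factors Gata1 and Klf1, which switch on globin, haem and membrane genes. In rodents the liver is a main site of this process before birth, and the process moves to spleen and bone marrow around and after birth. Nfe2 encodes the p45 subunit of NF-E2, which pairs with a small Maf protein. It binds regulatory elements of the globin genes and is known for its part in the formation of platelets by megakaryocytes.

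The livers came from Wistar Han rats given DE-71, a commercial mixture of polybrominated diphenyl ethers (PBDE), or corn oil alone. There were 6 groups of 5 animals: male control pups, male PBDE pups, female control pups, female PBDE pups, adult male controls and adult male PBDE rats. The dose was 50 mg/kg in corn oil, by gavage at 5 ml/kg. Dosing of dams began on gestation day 6 and ended on postnatal day 21, every day of the week. The pups received it directly too, until postnatal day 21, and weaned animals were dosed on 5 days a week. Controls received 0 mg/kg in the vehicle according to the protocol, although their labels call them untreated. Pup livers were taken on postnatal day 22 and adult livers at week 13. Each pup had a different dam, and adults of 1 dose group had different dams. Values are log2 intensities from Affymetrix whole-genome rat arrays, summarised by the authors with RMA, and a difference of 1 is a doubling. Intensities of different probe sets cannot be set directly against each other, so groups are compared within a probe set or a fixed list of them. Percentiles and the median of all values are given only as a rough mark of a faint or strong signal. Whole liver was measured, so fewer cells of a type and less RNA per cell cannot be told apart.

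Array medians lay between 5.72 and 5.77. The hepatocyte genes Alb, Apoa1 and Ttr lay above the 99th percentile of all probe sets in all 6 groups. The array names carry 1 of 2 prefixes. Male control, male PBDE and female control pups have the first, and female PBDE pups and both adult groups have the second. Prefix and group therefore cannot be told apart in the dose comparison of female pups or in the comparisons of adults with male pups. The dose comparisons of male pups and of adults each lie within 1 prefix. RNA integrity was read from Gapdh, whose control probe sets at the 3' end gain on those at the 5' end as RNA breaks down. In female pups this log2 gap averaged 1.93 ± 0.30 (SD, n = 5) with PBDE and 1.26 ± 0.50 without (two-sided exact permutation p = 0.0397). The adult groups differed in the same direction, at 1.17 ± 0.62 and 0.62 ± 0.18 (exact p = 0.0238), and so did the male pups, at 2.09 ± 0.65 and 1.61 ± 0.33 (exact p = 0.198). The part of this difference in the dose results was tested only as a covariate, which changed no dose call among the 9 genes.

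Nfe2 lies on chromosome 7 at 136261234 to 136273850 in the GRCr8 annotation. In male control pups its log2 intensities were 10.08, 9.24, 7.35, 9.79 and 8.96, and in male PBDE pups they were 6.44, 6.15, 5.76, 5.78 and 6.04. The highest male PBDE pup lay below the lowest male control pup. In female control pups the values were 10.12, 7.40, 8.40, 8.76 and 9.31, and in female PBDE pups 5.40, 6.37, 6.16, 6.21 and 6.53. Again the groups did not overlap. Adult controls gave 4.35, 6.14, 5.03, 5.88 and 5.77, and adult PBDE rats 5.36, 5.26, 4.88, 4.82 and 5.22. The adult groups overlapped, and 3 of the 5 adult controls lay within the range of the PBDE pups. Control pups varied widely among themselves, with an SD of 1.07 in males and 1.01 in females, against 0.28 in male and 0.43 in female PBDE pups.

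**Figure D1:**
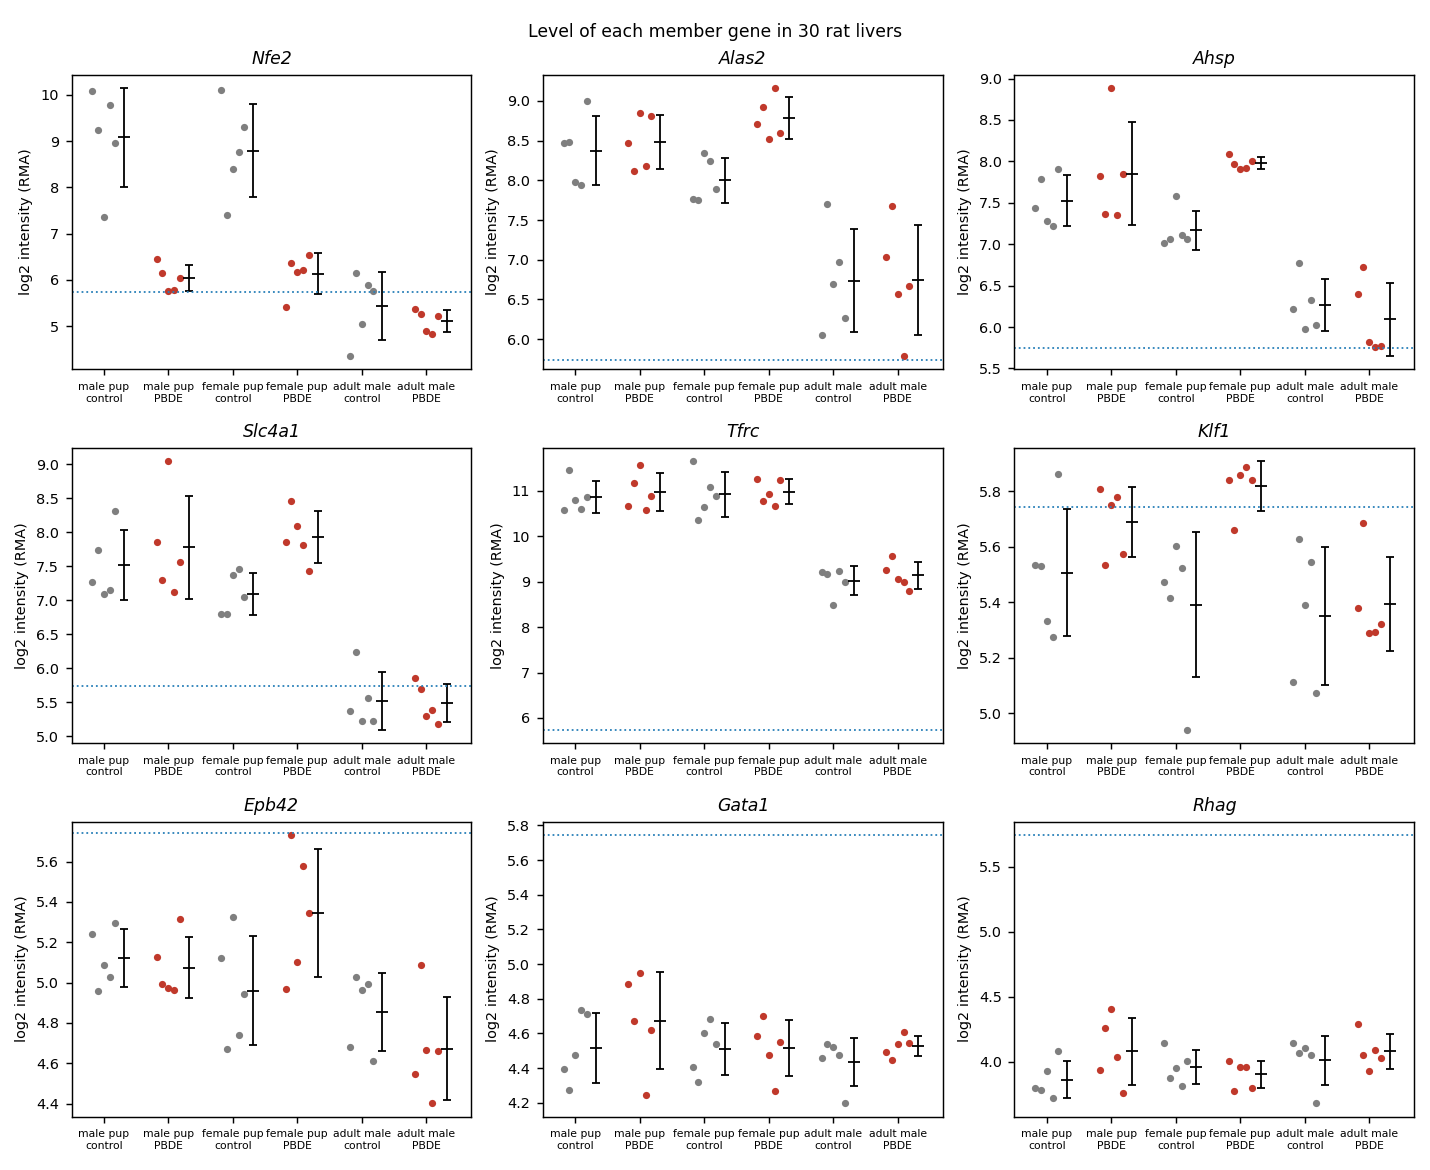
Log2 intensity (vertical axis) of each of the 9 genes in all 30 livers, by group (horizontal axis). Points are single livers, grey for control and red for PBDE, bars give the mean and SD of 5 livers, and the dotted line marks the median of all values (5.74). Nfe2 drops from means of 9.08 and 8.80 in control pups to 6.03 and 6.14 in PBDE pups, while Alas2, Ahsp, Slc4a1 and Tfrc are low in both adult groups.

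Between PBDE and control male pups Nfe2 fell by 3.05 ± 0.41 on the log2 scale (SE, n = 5 per group, 8.28-fold, limma adjusted p = 8.22e-06). In female pups it fell by 2.66 ± 0.41 (6.33-fold, limma adjusted p = 6.29e-05). Nfe2 was the 1 member of 9 called in each sex at a false discovery rate of 0.01, where 7.48% of all genes were called in males (3.26% as lower) and 6.13% in females (2.18% as lower). Groups that did not overlap with PBDE lower were found for 5.13% of all genes in males and 4.38% in females. The difference between the sexes in this response was -0.39, with a 95% interval from -1.58 to 0.80 (limma adjusted p = 0.987). Leaving out any single liver, the change of Nfe2 ran from -3.48 to -2.80 in males and from -3.01 to -2.33 in females.

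In adults the difference of Nfe2 between PBDE and control livers was -0.32 ± 0.41, with a 95% interval from -1.17 to 0.52 (limma adjusted p = 0.763). The interval lies wholly above the change measured in male pups. The test of the difference itself, age by dose in males, gave 2.72 ± 0.58 (limma adjusted p = 0.0118), and the adjusted p stayed at or below 0.0297 under every alternative tried. Age by dose called 1 of the 9 genes and 2.48% of all genes at a false discovery rate of 0.05, 1.13% in the direction of Nfe2. Both adult means of Nfe2, 5.43 and 5.11, lay below the median of all values, 5.74, where a further fall may be understated. The 2 pup groups and the 2 adult groups of this test carry different array-name prefixes, so a dose response that varies with prefix cannot be told apart from age.

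Across the 6 groups the order of mean Nfe2 level ran from male control pups (9.08) and female control pups (8.80) to female PBDE pups (6.14), male PBDE pups (6.03), adult controls (5.43) and adult PBDE rats (5.11). The only neighbours in that order whose livers did not overlap were female control pups and female PBDE pups. Sex alone left Nfe2 within the spread, with a male minus female difference of 0.29 in controls (limma adjusted p = 0.919) and -0.10 in PBDE pups (limma adjusted p = 0.9995). In each of these sex comparisons limma called 0 of the 9 genes, and 0 had an unadjusted p under 0.05. Of all genes, sex called 0.0422% in controls and 0.0563% in PBDE pups, and 8.71% and 5.15% had an unadjusted p under 0.05. The sex by dose test called 0% of all genes. There 1 of the 9 (Epb42) and 5.63% of all genes had an unadjusted p under 0.05.

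No measured relative or partner of Nfe2 was called lower with dose. Of 9 listed NF-E2 family and partner genes, 7 were measured, Nfe2 among them. Nfe2l1, which encodes NRF1, a regulator of proteasome genes, rose in all 3 dose comparisons, by 0.43 ± 0.08 in male pups, 0.53 ± 0.08 in female pups and 0.52 ± 0.08 in adults (limma adjusted p = 3.95e-04, 2.91e-05 and 1.34e-04). Nfe2l2, which encodes the antioxidant response factor NRF2, rose by 0.54 ± 0.11 in male pups and by 0.80 ± 0.11 in female pups, and its adult difference was 0.32 ± 0.11 (limma adjusted p = 0.137). The small Maf proteins pair with these factors. Maff rose in male pups (0.37 ± 0.09) and Mafk in female pups (0.51 ± 0.09), while Mafk in male pups gave 0.28 (limma adjusted p = 0.0580). No dose comparison called Mafg or Bach1, a repressor that competes for the same sites. In all, 3 of these 7 genes rose and 1 fell in each pup sex, and 1 rose in adults, where 3.9% of all genes were called. The family's median change was 0.28 in male pups, 0.16 in female pups and 0.21 in adults, beside 0.02, 0.02 and 0.01 over all genes.

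**Figure D2:**
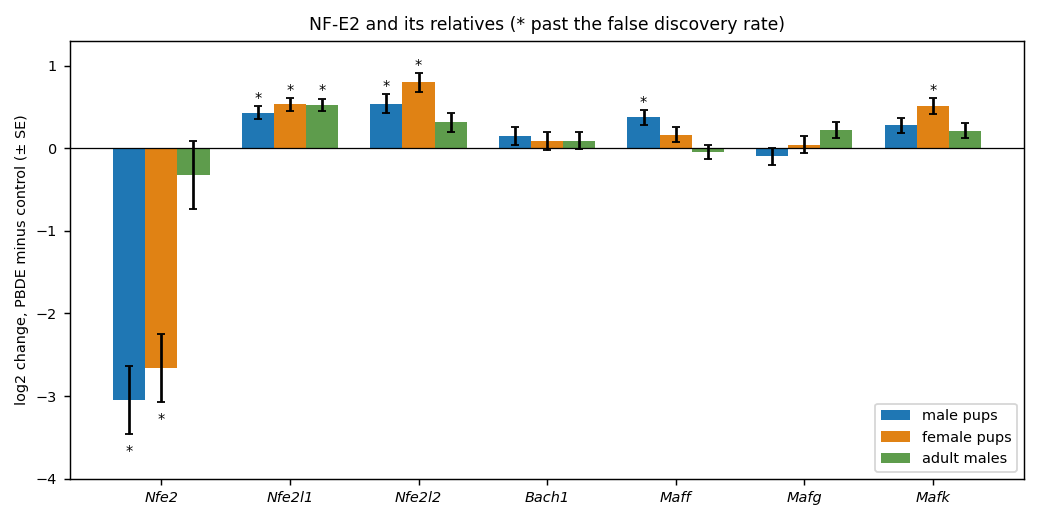
Log2 change from control to PBDE (vertical axis) for Nfe2 and 6 related or partner genes, with bars for male pups, female pups and adult males and whiskers for the SE (n = 5 per group). Stars mark changes past the false discovery rate of the comparison. Nfe2 is the 1 gene of the 7 called lower, in both pup sexes and not in adults, and Nfe2l1 is called higher in all 3.

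Nfe2 was also set against its neighbours on chromosome 7. Within 100000 bases of it the GRCr8 annotation lists 9 genes, of which 6 were measured. Hnrnpa1, which encodes an RNA-binding protein of splicing and ends just before Nfe2 begins, fell by 0.73 ± 0.13 in male pups (limma adjusted p = 3.99e-04). Its difference was -0.47 in female pups (limma adjusted p = 0.0216) and 0.05 in adults (limma adjusted p = 0.906). The other measured neighbours, Cbx5, Copz1, Gpr84, Zfp385a and Itga5, were not called in any of the 3 dose comparisons. No annotated gene of this window overlaps Nfe2.

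The genes whose pattern was most like that of Nfe2 were not erythroid. Over all 30 livers, and so largely across the same 6 group means, the 5 highest Pearson correlations were with Scap (0.95), Mvk (0.94), Hsd17b7 (0.94), Lss (0.93) and Qpct (0.93). Scap encodes the escort protein of the sterol regulatory element binding proteins, Mvk mevalonate kinase, Hsd17b7 a ketoreductase of sterol synthesis, Lss lanosterol synthase and Qpct glutaminyl-peptide cyclotransferase. Scap itself fell by 0.90 ± 0.13 in male pups and by 0.73 ± 0.13 in female pups, and its adult difference was -0.13 (limma adjusted p = 0.708). The 3 lowest correlations were with Apoa2, an apolipoprotein of high-density lipoprotein (-0.93), Rup2 (-0.91) and Mettl7a (-0.90).

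The same held among livers of 1 group. After the group mean was subtracted from each liver, the genes most like Nfe2 were Acat2 (r = 0.85), Mvk (0.83), Cyp51 (0.80), Mvd (0.79) and Fdft1 (0.79). These encode a cytosolic thiolase, mevalonate kinase, lanosterol demethylase, mevalonate diphosphate decarboxylase and squalene synthase. For Acat2 the Spearman rho was 0.79, and r without the 2 livers farthest from the median of Nfe2 was 0.79. Its r was 0.91 in the livers of the first prefix and 0.81 in those of the second, 0.95 in the 10 control pups and 0.79 in the other 20 livers. So a control pup low in Nfe2 was also low in Acat2, and the relation was present outside the control pups. For Fdft1, r was 0.95 in the 10 control pups and 0.68 in the other 20. These correlations are a description of 30 livers, among 14216 genes searched.

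Unlike Nfe2, Acat2 missed the threshold with dose (-0.90 ± 0.27 in male pups, limma adjusted p = 0.0257, and -0.84 ± 0.27 in female pups, limma adjusted p = 0.0452). Fdft1 gave -0.16 ± 0.15 in male pups (limma adjusted p = 0.593) and -0.28 ± 0.15 in female pups (limma adjusted p = 0.312). Mvk fell in male pups by 0.74 ± 0.17 (limma adjusted p = 0.00503) and gave -0.60 ± 0.17 in female pups (limma adjusted p = 0.0270). Mvd fell in male pups by 1.19 ± 0.29 (limma adjusted p = 0.00587) and gave -0.99 ± 0.29 in female pups (limma adjusted p = 0.0268). Cyp51 gave -0.41 ± 0.15 and -0.36 ± 0.15 (limma adjusted p = 0.0776 and 0.154). In both pup sexes the log2 difference of each of these 5 genes was smaller than that of Nfe2.

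Alas2 encodes the erythroid form of the first enzyme of haem synthesis, and it lies on chromosome X at 22890650 to 22914046. Its 250 bases before the RefSeq start (GRCr8, chrX:22895200-22895449, plus strand) are shown because Alas2 is the haem gene among the 9 and was lower in adults, and it is a known target of GATA factors. Tfrc is shown beside it as the other member with a RefSeq promoter entry that was called lower in adult than in pup males with and without PBDE (GRCr8, chr11:81690319-81690568, minus strand). Capitals mark matches to AGATAA, the letters of a GATA site, or to CCNCNCCC, the letters of a CACCC box bound by Klf1 and related factors, searched on both strands.
Alas2: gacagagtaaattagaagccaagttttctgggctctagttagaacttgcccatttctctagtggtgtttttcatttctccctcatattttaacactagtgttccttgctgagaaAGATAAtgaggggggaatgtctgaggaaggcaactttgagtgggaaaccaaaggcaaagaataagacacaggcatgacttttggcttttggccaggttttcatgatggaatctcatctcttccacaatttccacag
Tfrc: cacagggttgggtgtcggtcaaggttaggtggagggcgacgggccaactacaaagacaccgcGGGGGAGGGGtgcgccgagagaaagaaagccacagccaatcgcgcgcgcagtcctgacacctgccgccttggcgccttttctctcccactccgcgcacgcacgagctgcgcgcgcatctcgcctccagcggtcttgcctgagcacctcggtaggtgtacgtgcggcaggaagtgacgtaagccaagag
The Alas2 window holds AGATAA at position -136 from the start, and 10.3% of 33469 windows of this length hold it. That window lies inside the annotated span of the gene, so it does not precede the first annotated base of Alas2. The Tfrc window holds 2 overlapping matches to CCNCNCCC, at -188 and -186 on the opposite strand, and 42.78% of windows hold that motif. Of the 9 genes, 6 had an entry: these, Gata1, Klf1, Epb42 and Rhag. The Gata1 window, which also lies inside the annotated span of its gene, held 3 matches to CCNCNCCC. Those of Klf1, Epb42 and Rhag held no match to either string. Other spellings of a GATA site were not searched, so a window without AGATAA may still hold a GATA site. A match is a string of letters and shows no binding.

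Alas2 stood at 8.47, 8.48, 7.98, 7.94 and 9.0 in male control pups and at 8.47, 8.12, 8.84, 8.18 and 8.81 in male PBDE pups. These groups overlapped along most of their range. In female control pups it was 7.77, 7.75, 8.35, 8.24 and 7.89, and in female PBDE pups 8.71, 8.92, 8.52, 9.16 and 8.59. Here the groups did not overlap. Adult controls gave 6.05, 7.70, 6.70, 6.97 and 6.26, and adult PBDE rats 7.03, 7.67, 6.56, 5.79 and 6.66. The adult groups overlapped, and every adult lay below every pup. The change with dose was 0.11 ± 0.28 in male pups (limma adjusted p = 0.863), 0.78 ± 0.28 in female pups (limma adjusted p = 0.0799) and 0.01 ± 0.28 in adults (limma adjusted p = 0.994).

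Ahsp encodes the chaperone that holds free alpha globin. Its level was 7.44, 7.79, 7.28, 7.22 and 7.90 in male control pups and 7.83, 7.36, 8.89, 7.35 and 7.84 in male PBDE pups. The third PBDE male stood above the rest, and the groups overlapped. Female control pups gave 7.02, 7.06, 7.59, 7.11 and 7.06, and female PBDE pups 8.09, 7.97, 7.91, 7.92 and 8.0. All female PBDE pups lay above all female controls. Adult controls stood at 6.22, 6.78, 5.98, 6.33 and 6.03, and adult PBDE rats at 6.40, 6.72, 5.82, 5.76 and 5.77. The dose difference was 0.33 ± 0.22 in male pups (limma adjusted p = 0.403), 0.81 ± 0.22 in female pups (limma adjusted p = 0.0178) and -0.17 ± 0.22 in adults (limma adjusted p = 0.763). When only the 10 female arrays were fitted, Ahsp (adjusted p = 5.34e-04) and Alas2 (adjusted p = 0.00560) passed 0.01, so that limma called 3 of the 9 genes and 4.3% of all genes.

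Slc4a1 encodes band 3, the anion exchanger of the red cell membrane. Its values were 7.27, 7.74, 7.10, 7.15 and 8.32 in male control pups and 7.86, 7.30, 9.04, 7.12 and 7.57 in male PBDE pups. The groups overlapped, and the third PBDE male was again the highest. In female control pups they were 6.80, 6.80, 7.37, 7.45 and 7.05, and in female PBDE pups 7.86, 8.46, 8.09, 7.81 and 7.43. These 2 groups overlapped by a single PBDE pup, and the difference of 0.83 ± 0.28 was not called (limma adjusted p = 0.0598). Adult values ran from 5.22 to 6.24 in controls and from 5.18 to 5.85 in PBDE rats, all below the pups. The difference with dose was 0.26 ± 0.28 in male pups (limma adjusted p = 0.630) and -0.04 ± 0.28 in adults (limma adjusted p = 0.965). The second Slc4a1 probe set did not follow this pattern, with group means between 5.81 and 6.08.

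The other membrane genes were faint. Epb42, which encodes protein 4.2, a linker of band 3 to the cell skeleton, had group means from 4.67 in adult PBDE rats to 5.35 in female PBDE pups. Its difference with dose was 0.39 ± 0.14 in female pups (limma adjusted p = 0.0878), -0.05 in male pups and -0.18 in adults. Rhag, the Rh-associated glycoprotein, had group means from 3.86 to 4.08, and its dose differences were 0.22, -0.06 and 0.07 in male pups, female pups and adults. For both genes all 6 group means lay below the median of all values.

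The regulators Klf1 and Gata1 also lay low. Klf1 ran from 5.28 to 5.86 (median 5.53) in male control pups, and from 5.53 to 5.81 (median 5.75) in male PBDE pups. In female control pups it ran from 4.94 to 5.604, and in female PBDE pups from 5.66 to 5.89. All female PBDE pups were above the female controls, yet the difference of 0.43 ± 0.12 was not called (limma adjusted p = 0.0233). Groups that did not overlap with PBDE higher were found for 3 of the 9 genes in female pups (Ahsp, Alas2 and Klf1) and for 6.56% of all genes. The prefix difference between these groups cannot be told apart from dose. Gata1 had group means from 4.44 to 4.67, all below the median of all values, and dose differences of 0.16, 0.01 and 0.09. Gata1, Epb42 and Rhag failed a filter that asked for a mean above that median in at least 1 group, which 6 of the 9 genes passed.

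Tfrc encodes transferrin receptor 1, the route of iron into maturing red cells and into most dividing cells. Its level was 10.58, 11.45, 10.80, 10.59 and 10.86 in male control pups and 10.65, 11.18, 11.57, 10.58 and 10.87 in male PBDE pups. Female control pups gave 11.64, 10.35, 10.64, 11.08 and 10.88, and female PBDE pups 11.26, 10.77, 10.93, 10.66 and 11.24. The 4 pup groups overlapped throughout. Adult controls stood at 9.21, 9.16, 8.49, 9.24 and 9.0, and adult PBDE rats at 9.26, 9.56, 9.07, 8.99 and 8.79. With dose the difference was 0.11 ± 0.21 in male pups, 0.06 ± 0.21 in female pups and 0.11 ± 0.21 in adults, with 95% intervals that together span -0.38 to 0.55.

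**Figure D3:**
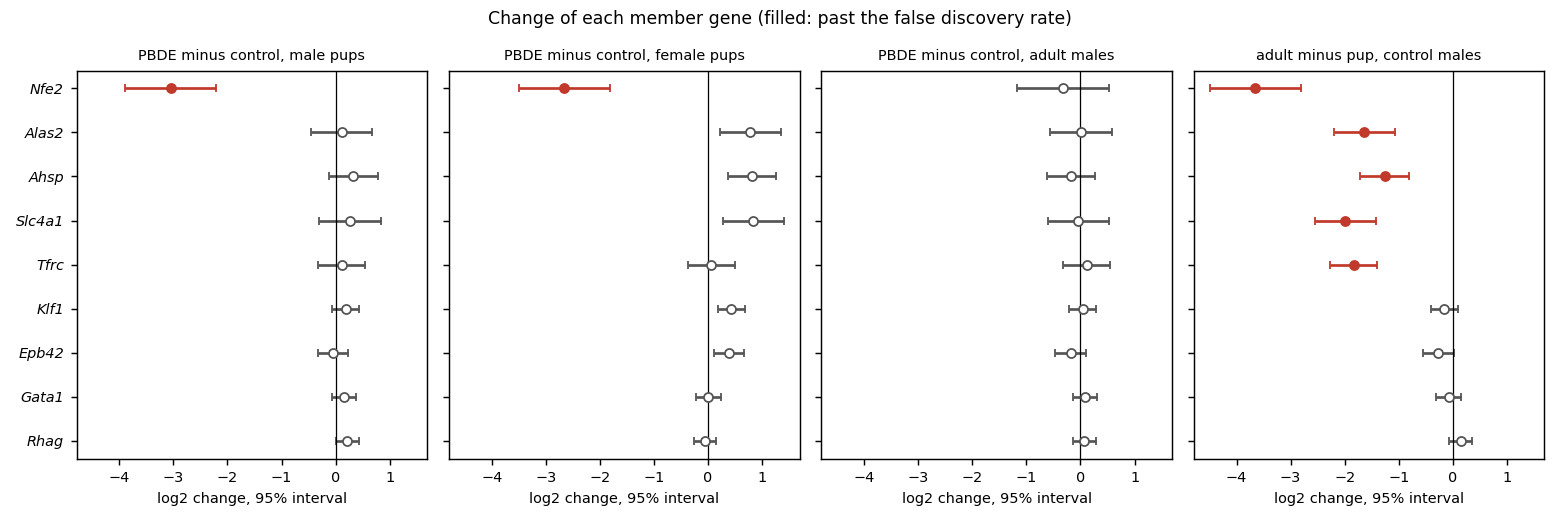
Log2 change (horizontal axis) of each of the 9 genes with its 95% interval, for PBDE minus control in male pups, female pups and adult males and for adult minus pup in control males (n = 5 per group). Filled red points passed the false discovery rate of the comparison, 0.01 for the pup panels and 0.05 for the others. Nfe2 is the 1 filled point in each pup panel, 0 are filled in the adult panel, and 5 are filled with age.

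In adults limma called 0 of the 9 genes and 3.9% of all genes with dose. An unadjusted p under 0.05 was reached in adults by 0 of the 9 and by 18.5% of all genes. In female pups 6 of the 9 reached it, beside 25.4% of all genes, and in male pups 2 of the 9, beside 28.3% of all genes. The median change of the 9 genes was 0.16 in male pups, 0.39 in female pups and 0.01 in adults, beside 0.02, 0.02 and 0.01 over all genes. For sex by dose, Alas2 gave -0.67 ± 0.39 and Ahsp -0.48 ± 0.31 (limma adjusted p = 0.977 for both), so the higher values of female PBDE pups were not shown to differ from the response of males.

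With age, more of the genes differed. Between pup and adult control males the log2 change was -3.65 ± 0.41 for Nfe2 (12.6-fold lower), -1.99 ± 0.28 for Slc4a1, -1.84 ± 0.21 for Tfrc, -1.64 ± 0.28 for Alas2 and -1.26 ± 0.22 for Ahsp, with limma adjusted p from 1.02e-07 to 7.73e-05. These were 5 of the 9 genes, and 18.6% of all genes were called lower. The differences of Klf1 (-0.16), Epb42 (-0.27), Gata1 (-0.08) and Rhag (0.15) were not called. The 3' minus 5' Gapdh gap also differed with age, at 1.61 ± 0.33 (SD) in male control pups and 0.62 ± 0.18 in adult controls. The part of this gap in the age results was tested only as a covariate, with which no age call in control males was lost. In PBDE males 4 of the 9 genes were lower in adults, where 13.6% of all genes were, namely Slc4a1 (-2.30 ± 0.28), Tfrc (-1.84 ± 0.21), Ahsp (-1.76 ± 0.22) and Alas2 (-1.74 ± 0.28). Nfe2, already low in PBDE pups, gave -0.93 ± 0.41 (limma adjusted p = 0.142). It was called when these 2 groups were fitted alone (adjusted p = 0.00142), and with the 3' minus 5' Gapdh covariate it was -0.55 (limma adjusted p = 0.568). With all groups fitted but without adult PBDE replicate 2, Klf1 (-0.37, limma adjusted p = 0.0484) and Epb42 (-0.50, limma adjusted p = 0.0140) were called lower. The second probe set of Tfrc was lower by 1.45 ± 0.29 in control adults, whereas that of Slc4a1 gave -0.02 ± 0.10.

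Age could also be read under a single array-name prefix, with female PBDE pups in place of the male pups and sex differing in place of the prefix. Adult PBDE rats were then lower for 6 of the 9 genes, where 15.2% of all genes were lower. These were Slc4a1 (-2.45), Alas2 (-2.04), Ahsp (-1.88), Tfrc (-1.84), Epb42 (-0.67) and Klf1 (-0.42). Adult controls differ from the same pups in dose as well as in sex and age, and these cannot be told apart there. They were lower for the same 6 genes, and 19.5% of all genes were lower. Among them Klf1 and Epb42 were not called between adult and pup males with all livers in. Female PBDE pups had the highest mean of the 4 pup groups for all 6 genes. Nfe2 gave -1.03 ± 0.41 (limma adjusted p = 0.0898) for adult PBDE rats and -0.70 ± 0.41 (limma adjusted p = 0.242) for adult controls against female PBDE pups.

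The 5 lists of other erythroid genes moved in both directions with age. Of their 67 measured genes, 15 were lower and 7 higher in adult than in pup controls, where 18.6% of all genes were lower and 10.9% higher. In PBDE males 19 were lower and 3 higher, where 13.6% of all genes were lower and 5.2% higher. The median change of the 67 genes was -0.03 in controls and -0.10 in PBDE males, beside -0.02 and -0.03 over all genes. In controls 1 of 5 globin genes was lower. The list names 12, and its adult alpha globin genes were not measured. Hba-a3, an alpha globin outside the list and among the genes most like Alas2, was lower by 1.46 ± 0.22 in control males (limma adjusted p = 8.19e-06). Of 13 membrane genes 3 were lower and 1 higher, and of 18 regulators 2 were lower and 2 higher. Of 16 enzymes and late maturation genes 6 were lower and 3 higher, and of 15 haem and iron import genes 3 were lower and 1 higher. The genes that were higher included Xk (2.34 ± 0.19), Foxo3 (1.18 ± 0.18) and Ube2l6 (1.05 ± 0.16). Hbb, adult beta globin, had group means from 13.77 to 14.06 in pups and of 12.89 and 12.80 in adults, and it was lower by 1.07 ± 0.18 in control males and by 1.04 ± 0.18 in PBDE males. The erythroid nuclear protein Hemgn was lower by 1.01 ± 0.21 and 1.02 ± 0.21, and Rhd, an Rh blood group protein, by 0.78 ± 0.16 and 0.94 ± 0.16. The embryonic globins Hbz, Hbe1 and Hbg1 lay between the 9.98th and the 20.9th percentile of probe sets in every group, and another, Hbe2, between percentiles 51.8 and 54.2. Cell cycle genes were also lower in adults, 13 of 15 in controls and 15 of 15 in PBDE males, among them Mki67 (-1.98 ± 0.23 in controls). The summed log2 level of these 15 genes ran from 92.6 to 98.8 in male control pups and from 77.4 to 83.9 in adult controls. The part of the cell cycle difference in the lower Tfrc was not tested.

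With dose, 7.48% of all genes were called in male pups, 6.13% in female pups and 3.9% in adults. The 5 globin genes that could be read gave 0 calls in all 3 comparisons. Their median change was -0.03 in male pups, 0.06 in female pups and -0.04 in adults, beside 0.02, 0.02 and 0.01 over all genes. Hbb differed by -0.11 ± 0.18, 0.30 ± 0.18 and -0.09 ± 0.18. Alpha globin was read from 1 gene outside the list, Hba-a3, which gave -0.02 in male pups, 0.65 in female pups (limma adjusted p = 0.0627) and 0.14 in adults. Of 13 membrane and skeleton genes 1 rose in male pups, Xk (0.82 ± 0.19), which encodes a transporter-like protein that carries the Kx antigen, and 0 were called in female pups or adults. Of 18 erythroid regulators 1 was called in each comparison, and each was a different one. Lmo2, a bridging partner of Gata1 that endothelium also expresses, fell in male pups (-0.41 ± 0.09). Ldb1, its binding partner, rose in female pups (0.38 ± 0.08), and Foxo3, a stress-response factor of many tissues, fell in adults (-0.87 ± 0.18).

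Among 16 enzymes and late maturation genes 3 rose in male pups and 4 in female pups, and 3 rose and 1 fell in adults. The shares of all genes called in these comparisons were 7.48%, 6.13% and 3.9%. Blvrb, which encodes biliverdin reductase B, rose by 0.67 ± 0.08 in male pups, 0.70 ± 0.08 in female pups and 0.38 ± 0.08 in adults. Bnip3l, a receptor for the removal of mitochondria, rose by 0.60 ± 0.06, 0.63 ± 0.06 and 0.26 ± 0.06. Ube2l6, a conjugating enzyme for the ubiquitin-like ISG15, rose by 0.81 ± 0.16 in male and 0.65 ± 0.16 in female pups. Ube2o, a ubiquitin-conjugating enzyme of late red cell maturation, rose in female pups by 0.73 ± 0.15. In adults the carbonic anhydrases moved apart, with Car1 lower by 0.85 ± 0.16 and Car2 higher by 0.91 ± 0.17. All these genes are active in cells other than red cells as well. The list's median change was 0.11 in male pups, 0.13 in female pups and 0.01 in adults, beside 0.02, 0.02 and 0.01 over all genes.

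The haem synthesis and iron import list held 15 measured genes. Of these, 4 rose and 2 fell in male pups, 2 rose and 1 fell in female pups, and 1 rose and 2 fell in adults. Beside them, 7.48%, 6.13% and 3.9% of all genes were called. Fech, ferrochelatase, the last enzyme of haem synthesis, rose by 0.50 ± 0.09 in male pups and by 0.58 ± 0.09 in female pups. Steap3, a ferric reductase, fell in all 3 comparisons, by 0.82 ± 0.16, 0.96 ± 0.16 and 0.71 ± 0.16. Abcg2, an exporter of porphyrins and drugs, fell in male pups by 1.53 ± 0.19. The mitochondrial iron importer Slc25a37 rose in male pups (0.36 ± 0.09) and in adults (0.54 ± 0.09). Slc25a39, a mitochondrial carrier, rose in female pups by 0.38 ± 0.08, and Alad, the second enzyme of the pathway, fell in adults by 0.34 ± 0.09. The list's median change was 0.07 in male pups, 0.00 in female pups and 0.03 in adults, so the called genes moved in both directions around a median close to that of all genes. Of 15 liver iron genes 1 rose and 2 fell in male pups, and 1 fell in female pups and in adults. Slc40a1, the iron exporter ferroportin, fell in all 3 comparisons (-0.40, -0.39 and -0.32), and Id1, a target of bone morphogenetic protein signals, fell in male pups by 1.01 ± 0.16. Aco1, the cytosolic aconitase that also acts as an iron regulatory protein, rose in male pups by 0.53 ± 0.10.

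Markers of other blood cells were read because Nfe2 is also a megakaryocyte gene. The counts below stand beside 7.48% of all genes called in male pups, 6.13% in female pups and 3.9% in adults. Of 13 megakaryocyte and platelet genes 1 was lower in male pups, Fli1 (-0.51 ± 0.11), a factor that endothelium also expresses, and 0 were called in female pups or adults. Pf4, platelet factor 4, differed by less than 0.3 between PBDE and control in each comparison, with group means from 6.77 to 7.06, and Itga2b, the platelet integrin subunit, had group means from 7.56 to 7.96. The part of megakaryocytes and platelets in the fall of Nfe2 was not tested. The summed log2 level of the 13 genes ran from 80.5 to 82.5 in male control pups. In male PBDE pups it ran from 80.4 to 83.3, and the ranges overlapped. In the same groups 10 of 10 Kupffer cell genes had a lower mean with PBDE, 2 of them called (Aif1, -0.77 ± 0.17, and C1qa, -0.71 ± 0.17), with a summed level of 90.8 to 93.5 in controls and 87.0 to 89.0 in PBDE pups. In female pups 9 of the 10 had a lower mean, 0 were called, and the summed ranges overlapped (88.0 to 99.1 and 87.8 to 92.0). In adults, where Nfe2 was not called, 10 of the 10 had a lower mean and 1 was called (Aif1, -0.64 ± 0.17), with summed levels of 89.0 to 95.7 and 84.1 to 91.3. The list's median change was -0.36 in male pups, -0.20 in female pups and -0.41 in adults, beside 0.02, 0.02 and 0.01 over all genes. The part of these cells in the fall of Nfe2 was not tested. Of 6 neutrophil and myeloid progenitor genes 0 were called in all 3 comparisons. Their highest summed level in female control pups was 43.8, beside a group median of 30.8. Of 8 lymphocyte genes 0 were called in either pup sex and 1 was lower in adults. Of 8 hepatocyte genes 1 fell in male pups and 2 in female pups, and 0 were called in adults. Of 15 cell cycle genes 3 rose in male pups, 0 were called in female pups and 1 rose in adults. All 15 had a mean above control in both pup sexes. Their median change was 0.52 in male and 0.45 in female pups, beside 0.02 in each sex over all genes.

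Among livers of 1 group some of the erythroid genes varied together, and no pair with Nfe2 passed the test. Of 36 pairs of members, tested on deviations from the group means over 30 livers, 6 passed an adjusted p of 0.05 in the two-sided permutation test. Ahsp and Slc4a1 had r = 0.84 (rho 0.78, adjusted p = 5.40e-04), and Ahsp and Alas2 had r = 0.73 (rho 0.77, adjusted p = 5.40e-04). Without the 2 farthest livers these were 0.80 and 0.74, and within the 2 prefixes they were 0.93 and 0.66, and 0.77 and 0.79. Alas2 also went with Klf1 (r = 0.68, permutation adjusted p = 0.00187), Slc4a1 (0.64, permutation adjusted p = 6.00e-04) and Epb42 (0.63, permutation adjusted p = 0.00187), and Ahsp with Klf1 (0.53, permutation adjusted p = 0.0122). The other 4 pairs of these 5 genes did not pass, among them Slc4a1 and Klf1 (0.44, permutation adjusted p = 0.0699) and Slc4a1 and Epb42 (0.21, permutation adjusted p = 0.417). Gata1, Rhag and Tfrc were in no pair that passed, and Ahsp and Tfrc had r = 0.50 (permutation adjusted p = 0.0620).

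For Nfe2 the 8 correlations with other members ran from -0.12 (Rhag) to 0.34 (Epb42), and 0 of 8 passed. With Alas2 its r was 0.26 (rho 0.15, permutation adjusted p = 0.361), at 0.05 in the livers of the first prefix and 0.56 in those of the second. Ranked by likeness to Nfe2 within groups, Alas2 stood at place 2560 of 14216 genes. By contrast, the genes most like Alas2 within groups were Hbb (r = 0.92), Hba-a3 (0.92), Bpgm (0.90), Cdc25b (0.88) and Ybx3 (0.86). These encode beta globin, alpha globin, the enzyme that makes the red cell metabolite bisphosphoglycerate, a cell cycle phosphatase and a cold shock domain protein. The same 5 genes led over all 30 livers (r from 0.96 to 0.98), and Ahsp and Slc4a1 took places 6 and 8 of 14216. The lowest correlations over all livers were with Zfp37, Rab11fip5 and Zdhhc23, at -0.88 each.

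**Figure D4:**
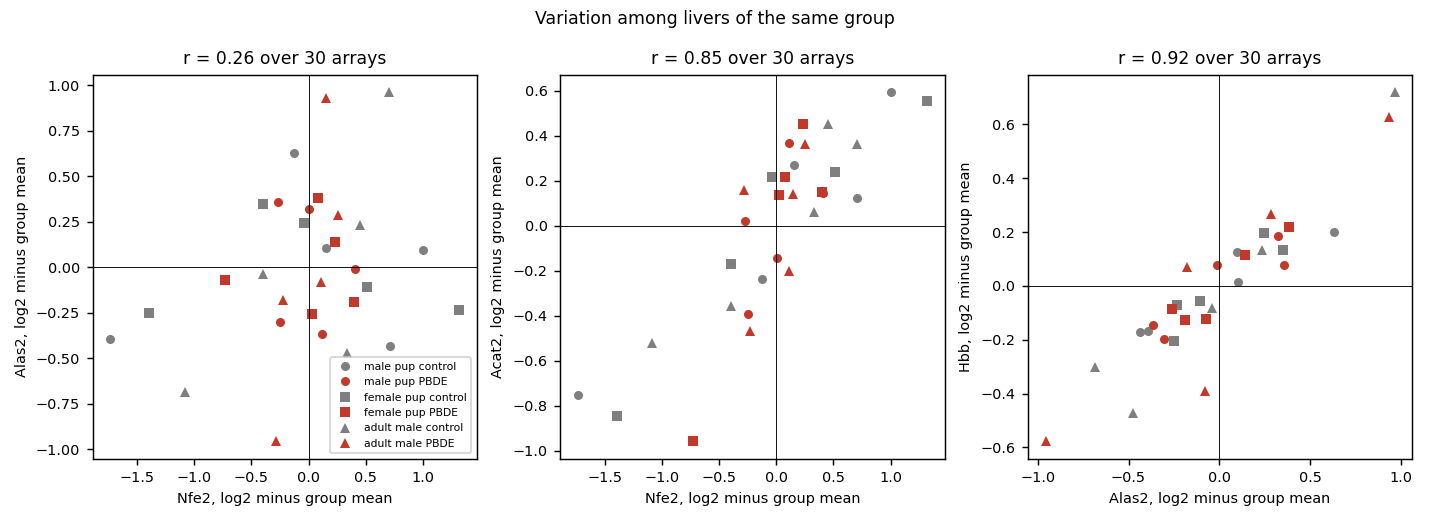
Deviation of each of 30 livers from its group mean, in log2 units, for Alas2 against Nfe2 (left), Acat2 against Nfe2 (middle) and Hbb against Alas2 (right), with symbols for the 6 groups. Nfe2 and Alas2 scatter without a clear line (r = 0.26), whereas Nfe2 follows Acat2 (r = 0.85) and Alas2 follows Hbb (r = 0.92).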

How the data were processed

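Expression in 30 livers was measured on Affymetrix whole-genome rat arrays, from 50 ng of total RNA labelled in 2 cycles per the labels' protocols. The deposited values are log2 intensities that the authors made with RMA, per the submitters' processing notes; software version is not given in the sources used here. Array values carry no read depth, and 5 arrays per group limit the precision. Of 31099 probe sets 57 controls were set aside. The 30 arrays entered 1 limma fit (version 3.58.1, R 4.3.3) that gave each group its own mean, with eBayes and Benjamini-Hochberg adjustment over 31042 probe sets. Following the series design, the false discovery rate was 0.01 for pups and 0.05 for adults, and 0.05 was used for age. The design names R/maanova, which was not used here. A gene was read from the probe set naming it alone with the highest mean. Within-group correlations used deviations from group means and 100000 permutations within groups. The fit was tested on simulated data.

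The members and the 13 other gene lists were chosen with earlier results of these data known. All members are shown, in text or figure, for the dose comparisons and for age in control males. The other comparisons are given as counts, with some members named. From each list up to 4 called genes with the largest change are named, and the NF-E2 family in full. For Nfe2 and Alas2 the 5 most and 3 least correlated genes over all arrays are named, with the 5 most correlated within groups. Hba-a3, Scap, Hemgn, Rhd, Mki67, Pf4 and Itga2b, and Xk, Foxo3 and Ube2l6 with age, were given values after these were seen, as were the age contrasts under 1 prefix. Globin probe sets that name several genes were not used here. Promoter windows are those of RefSeq for GRCr8, the build of all coordinates. Replicate numbers name no shared dam. Alternatives were renewed quantile normalization, a filter on low values, other moderation, the mean of all probe sets, the compared groups alone, a 3' minus 5' covariate, a replicate block and leaving out each array.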

Additional observations from a re-analysis of the deposited data

Results flagged for a closer look

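In 6 of 54 sets of 5 livers for 1 gene, 1 liver stood apart from the other 4 by Dixon's test at the 95% level, where chance gives about 1 set in 20. Ahsp was high (7.59) in female control pup replicate 3. Klf1 was low in female control pup replicate 5 (4.94) and female PBDE pup replicate 2 (5.66), and high in adult PBDE replicate 2 (5.69). Gata1 (4.20) and Rhag (3.68) were both low in adult control replicate 5. Most of these genes are faint, and the Klf1, Gata1 and Rhag values lay below the median of all values, 5.74.

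The response of Nfe2 to dose differed between adult and pup males by 2.72 on the log2 scale (limma adjusted p = 0.0118). All 5 male PBDE pups lay below all 5 controls, whereas the adult groups overlapped. Adult and male pup livers carried different array-name prefixes. Each dose difference lies within 1 prefix, so a shift shared by all arrays of a prefix cancels in this test. A dose response that varies with prefix cannot be told apart from age.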

How the results depend on the processing

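No call among the 9 genes was lost or turned in direction under the alternatives run. In female pups 3 genes in place of 1 were called when the compared groups were fitted alone, and Slc4a1 reached an adjusted p of 0.0137 there. The 3' minus 5' Gapdh difference ran from 0.54 to 0.88 in female pups with 1 liver left out, passing 0.05 in 3 of 10 cases, and from 0.28 to 0.66 in adults, passing in 7 of 10. With Actb in place of Gapdh the adult difference was 0.58 (exact permutation p = 0.0714). Same-numbered arrays were not taken as pairs, because the numbers name no shared dam. Of 75 such pairs 18 had a residual correlation above 0.1 (mean 0.00417, against -9.06e-04 for other pairs). The share above 0.1 was not counted for other pairs. The closest array of another group carried the same number for 11 of 30 arrays, where 5 of the 25 arrays compared with each carried it. These figures do not decide whether the arrays are paired. With a replicate block Nfe2 fell by 3.05 in male pups (limma adjusted p = 1.64e-05) and the female change was -2.66 (limma adjusted p = 1.01e-04), and the block changed no call or count of calls. In PBDE males, Nfe2, Klf1 and Epb42 became lower with age in 1, 1 and 3 of 18, 18 and 17 alternatives. Klf1, near the array medians, and Epb42, Gata1 and Rhag, below them, have signals whose changes may be understated. Group means lay between percentiles 26.5 and 31.5 of all probe sets for Gata1, and between 13.8 and 18.2 for Rhag. Whether these transcripts were detected at all was not tested.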
